A study of Mus musculus with 4 samples.

Results

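The genes of the proteasome were followed in islets of newborn mice that carried the Mettl3/14nKO genotype or were wild-type. Members were the genes of the deposited table whose symbol begins with Psma, Psmb, Psmc, Psmd or Psme and a digit, without the immunoproteasome genes Psmb8, Psmb9 and Psmb10, which were read beside them. The rule found 42 of 22564 genes, and 39 of the 42 held enough fragments to be tested. It takes genes by name, so it also took Psmc3ip, whose protein acts in meiotic recombination and is no proteasome subunit, and it left out subunits with other names such as Adrm1 and Sem1. RNA came from pancreatic islets, clusters of endocrine cells that release insulin and glucagon, of 129sv mice at postnatal day 0, with 2 libraries labelled Mettl3/14nKO and 2 labelled wild-type. The labels name no further allele, no Cre driver and no number of mice per library, so the cells that lost the genes are unstated, as is whether animals were pooled. Nor is it stated that replicates were separate animals, and p-values then cover the spread between 4 samples that may differ by technical error alone.

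The proteasome is the protease that breaks down proteins tagged with ubiquitin. Its 20S core particle is a barrel of outer alpha rings, which gate the entry, around inner beta rings, which hold the proteolytic sites. The 19S cap recognises tagged proteins, removes the ubiquitin and, with a ring of ATPases, unfolds the protein and pushes it into the core. Other activators (Psme genes) can bind the core in place of the cap. In islet beta cells, which fold large amounts of proinsulin, the proteasome also clears misfolded proteins that are returned from the endoplasmic reticulum. Mettl3 and Mettl14 form the enzyme that writes the m6A mark on RNA, a methyl group on adenosine, and the series asks what RNA modification does in these islets. Methylation itself was not analysed here.

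No proteasome transcript passed the test between the genotypes. The test was edgeR's quasi-likelihood test on whole fragments, with p-values adjusted by the Benjamini-Hochberg method over all 10956 genes tested and a threshold of 0.05. It called 0 of 39 tested members, beside 3.71% of all genes tested (230 higher and 176 lower in Mettl3/14nKO), and the smallest adjusted p of a member was 0.213. At an unadjusted p under 0.05 it held 2 of 39 members, Psma7 and Psmb2, both with lower values in Mettl3/14nKO, beside 15.9% of all genes. The log2 fold changes of the members had a median of -0.19 (0.874-fold), where all genes had 0.00. By part of the particle, the median was -0.37 for the alpha ring, -0.23 for the beta ring and 0.01 for the ATPase ring.

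The libraries were shallow. Mettl3/14nKO replicates 1 and 2 held 1216499 and 744016 fragments in genes, and wild-type replicates 1 and 2 held 1255526 and 1617429. A tested member had 46 to 1040 fragments over the 4 libraries (median 270), and 8 of the 39 had under 20 in Mettl3/14nKO replicate 2. The targeted genes were checked first. Mettl3 had 30 and 9 fragments in Mettl3/14nKO against 20 and 47 in wild-type, so the groups overlapped in CPM, and its log2 fold change was -0.25 (SE 0.40, edgeR adjusted p = 0.849). Its deposited FPKM did not overlap (6.95 and 5.86 against 8.403 and 14.5), and limma on FPKM gave -0.71, or -0.50 after the libraries were rescaled. Mettl14 had 24 and 12 fragments in Mettl3/14nKO against 32 and 54 in wild-type, with a log2 fold change of -0.71 (SE 0.32, edgeR adjusted p = 0.308). Which part of each gene was deleted is unstated, so neither value bears firmly on the labels. Islet markers were abundant in all 4 libraries, with 11993 to 17553 CPM for 8 alpha cell markers and 36.2 to 76.6 CPM for 13 markers of acinar cells, the enzyme-secreting cells around islets. Some cell markers differed between the groups. The summed level of 10 beta cell markers was 38445 and 47753 CPM (fragments scaled to the library total) in Mettl3/14nKO against 72601 and 76061 CPM in wild-type, with 1 marker higher and 3 lower by edgeR. Most of that sum came from Ins1, Ins2 and Iapp, the 3 called lower. Of the 10 log2 fold changes 5 were negative and 5 positive, with a median of 0.002. The 14 mesenchymal markers summed to 13500 and 9640 CPM against 6513 and 4588 CPM, with 10 of 14 higher. Of 15 leukocyte markers 8 were higher (387 and 710 CPM against 56.6 and 129 CPM), and of 14 tested endothelial markers 7 were lower (533 and 348 CPM against 1397 and 1175 CPM). No endothelial, leukocyte, mesenchymal or beta marker was at 0 in all libraries. The part of these differences in the proteasome values was not tested, and in bulk RNA fewer cells of a type and less RNA per cell cannot be told apart.

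Proteasome transcripts were well expressed. FPKM, the authors' deposited values of fragments divided by transcript length and library size, allows levels of different genes to be compared. The 38 subunits, cap chaperones and activators, leaving out the copy, the tissue-restricted genes and Psmc3ip, had a median wild-type mean of 25.5 FPKM. Over the 12170 expressed genes the median was 7.60 FPKM, and 36 of the 38 lay above it. Psma7 was highest in wild-type at 57.7 ± 4.998 FPKM (SD, n = 2), followed by Psmb2 at 52.2 ± 12.0 FPKM and Psmb6 at 49.2 ± 11.6 FPKM. The mean of Psma7 differed from those of Psmb2 and Psmb6 by more than its own SD but by less than theirs. Psmd4 had 40.2 ± 1.76 FPKM and Psme1 39.4 ± 5.16 FPKM. Within the particle, wild-type means spanned 17.7 to 57.7 FPKM in the alpha ring (3.26-fold) and 16.7 to 52.2 FPKM in the beta ring (3.12-fold). In the ATPase ring they spanned 23.1 to 33.0 FPKM (1.43-fold). The chaperones of cap assembly were lowest, at 3.81 FPKM for Psmd9, 4.36 FPKM for Psmd10 and 9.25 FPKM for Psmd5. The order of the 38 was alike in each pair of libraries, with Spearman's rho of 0.703 to 0.811 across genes, given as a description since genes are not replicates.

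**Figure D1:**
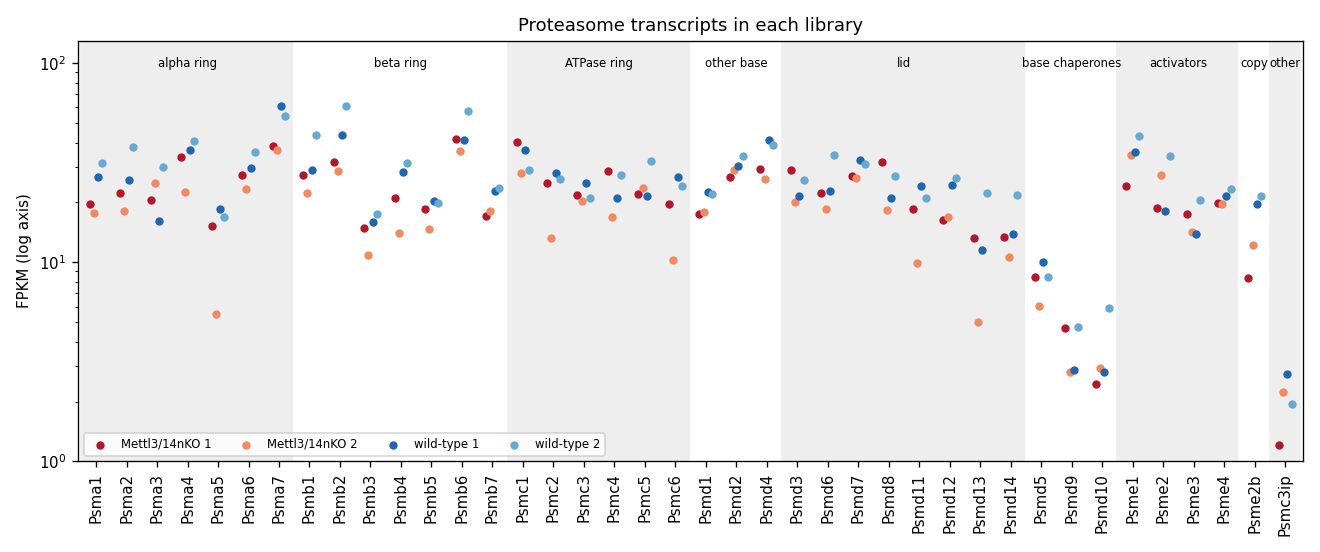
FPKM (log axis) of each detected proteasome gene in the 4 libraries, 1 point per library, shaded by part of the particle ("copy" is Psme2b, "other" is Psmc3ip; Psma8 and Psmb11 lie at or near 0 and are not drawn). Most subunits sit between 10 and 60 FPKM, and the 3 base chaperones sit lowest among subunits and helpers. Both Mettl3/14nKO points lie below both wild-type points for 26 of the 39 genes tested by edgeR, beside 36.7% of all genes tested. In the other columns the points of the 2 genotypes overlap.

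Of the alpha ring, whose subunits form the outer gate, all 7 genes had negative log2 fold changes, from -0.52 to -0.14, and none was called. Psma3 turned positive on the deposited FPKM (20.49 and 24.9 against 16.1 and 29.97, which overlapped), with 0.04 by limma and 0.26 after rescaling the libraries to a common median ratio. A negative log2 fold change was found for 49.6% of all genes. From here on, overlap of groups refers to CPM unless FPKM is named. Psma7 had 67 and 44 fragments in Mettl3/14nKO (55.1 and 59.1 CPM) and 112 and 119 in wild-type (89.2 and 73.6 CPM). Both Mettl3/14nKO libraries lay below both wild-type libraries, and the log2 fold change was -0.52 (SE 0.20, 95% interval -0.95 to -0.08, edgeR adjusted p = 0.213). The gene lies on chromosome 2 at 180036374 to 180042433 of mm10, on the minus strand. Psma1 had 52 and 34 fragments in Mettl3/14nKO against 68 and 96 in wild-type, a log2 fold change of -0.37. For Psma2 they were 44 and 26 against 50 and 85, a log2 fold change of -0.39. In CPM neither gene's groups overlapped. Psma6 (57 and 38 against 65 and 91 fragments) and Psma3 (55 and 30 against 62 and 97) also did not overlap in CPM. Psma4 had 87 and 42 against 90 and 115 fragments and a log2 fold change of -0.14, and its groups overlapped. Psma5 overlapped as well, since its low value lay in 1 library: it had 42 and 11 fragments in Mettl3/14nKO against 50 and 53 in wild-type.

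The beta ring carries the proteases. Its 3 catalytic genes gave small values with wide intervals. Psmb5, which encodes the chymotrypsin-like site, the target of the drug bortezomib, had 33 and 19 fragments in Mettl3/14nKO (27.1 and 25.5 CPM) and 35 and 40 in wild-type (27.9 and 24.7 CPM). The groups overlapped, and its log2 fold change of 0.01 (SE 0.30, 95% interval -0.63 to 0.65, edgeR adjusted p = 0.995) changed sign under other settings. Psmb6, the caspase-like subunit, had 64 and 41 against 64 and 101 fragments, and its groups overlapped too (log2 fold change -0.09, SE 0.22, edgeR adjusted p = 0.904; 0.06 without wild-type replicate 2). Psmb7, the trypsin-like subunit, had 42 and 31 against 57 and 69 fragments. Its groups did not overlap in CPM, and its log2 fold change was -0.23 (SE 0.26, edgeR adjusted p = 0.757). The intervals of these genes reach both a lower and a higher level, so equal expression is not shown.

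Among the beta subunits without a proteolytic site, Psmb2 stood lowest. It had 56 and 34 fragments in Mettl3/14nKO (46.0 and 45.7 CPM) and 74 and 120 in wild-type (58.9 and 74.2 CPM). The groups did not overlap, and the log2 fold change was -0.55 (SE 0.22, 95% interval -1.03 to -0.07, edgeR adjusted p = 0.234). Psmb2 lies on chromosome 4 at 126677630 to 126709714 of mm10, on the plus strand. Psmb1 had 61 and 36 against 63 and 110 fragments and did not overlap in CPM, although Mettl3/14nKO replicate 1 and wild-type replicate 1 were nearly equal at 50.1 and 50.2 CPM. Psmb4 (55 and 26 against 52 and 94 fragments) and Psmb3 (27 and 12 against 27 and 31 fragments) overlapped.

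The 19S base holds the ATPase ring and 3 further subunits. Of the 6 ATPase genes 2 had negative and 4 positive log2 fold changes, and none was called. Psmc6 was the lowest, with 71 and 27 fragments in Mettl3/14nKO against 95 and 100 in wild-type. Its groups did not overlap (58.4 and 36.3 CPM against 75.7 and 61.8 CPM), and the log2 fold change was -0.49 (SE 0.24, edgeR adjusted p = 0.357). Psmc1 had the highest log2 fold change of the ring, 0.32, with 116 and 96.8 CPM in Mettl3/14nKO against 100 and 72.3 CPM in wild-type, which overlapped. Psmc2 (-0.24), Psmc3 (0.15), Psmc4 (0.02) and Psmc5 (0.01) overlapped between groups. The scaffold subunits Psmd1 and Psmd2, which hold ubiquitin receptors and shuttle factors, had log2 fold changes of -0.19 and -0.07. Psmd2 was among the best measured members, with 182 and 121 fragments in Mettl3/14nKO (150 and 163 CPM) and 205 and 261 in wild-type (163 and 161 CPM), and its 95% interval ran from -0.37 to 0.24. Psmd4, a ubiquitin receptor of the cap, had 76.4 and 80.6 CPM against 86.8 and 76.7 CPM and a log2 fold change of -0.06, or -0.28 on rescaled FPKM.

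The lid of the cap removes ubiquitin chains before the protein enters. Its 8 genes gave 5 negative and 3 positive log2 fold changes, with no call. Psmd3 was the member with the largest positive value. It had 152 and 81 fragments in Mettl3/14nKO (125 and 109 CPM) and 108 and 160 in wild-type (86.0 and 98.9 CPM), so both Mettl3/14nKO libraries lay above both wild-type libraries. The log2 fold change was 0.34 (SE 0.17, 95% interval -0.02 to 0.70, edgeR adjusted p = 0.354), and the deposited FPKM of Psmd3 overlapped between groups (29.0 and 20.2 against 21.5 and 26.0). An exon of the antisense gene Gm12356 overlaps Psmd3 at chromosome 11, 98682554 to 98695979 of mm10. Psmd12 had 66 and 53 fragments in Mettl3/14nKO against 101 and 126 in wild-type (54.3 and 71.2 CPM against 80.4 and 77.9 CPM). Its groups did not overlap, with a log2 fold change of -0.37 (SE 0.20, edgeR adjusted p = 0.433). Psmd11 had 108 and 51 against 128 and 154 fragments, also without overlap in CPM (log2 fold change -0.31, SE 0.18, edgeR adjusted p = 0.474). Psmd13 had 46 and 16 against 47 and 82 fragments, which overlapped in CPM (log2 fold change -0.53, SE 0.30, edgeR adjusted p = 0.450), and its exons overlap antisense exons of Sirt3. Psmd14, the deubiquitinase of the lid, had 48 and 23 against 42 and 82 fragments and a log2 fold change of -0.26. Psmd6 (-0.10), Psmd7 (0.01) and Psmd8 (0.32) overlapped between the groups in CPM. The deposited FPKM of Psmd6 (22.4 and 18.4 against 22.8 and 34.4) and Psmd7 (27.2 and 26.5 against 32.7 and 31.2) did not overlap.

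Psmd5, Psmd9 and Psmd10 encode chaperones that help to assemble the base and leave the finished particle. They were measured with few fragments. Psmd10 had 8 and 7 fragments in Mettl3/14nKO against 9 and 22 in wild-type, Psmd9 had 30 and 13 against 18 and 35, and Psmd5 had 45 and 23 against 50 and 51. All 3 overlapped between the groups, with log2 fold changes of -0.46, 0.24 and -0.05.

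The activators bind the ends of the core. Psme1 and Psme2 encode the ring induced by interferon-gamma, Psme3 a nuclear ring and Psme4 a large single-chain activator. Psme4 had the most fragments of any member, 239 and 160 in Mettl3/14nKO against 272 and 369 in wild-type. At 196 and 215 CPM against 217 and 228 CPM its groups stood apart by a narrow margin, with a log2 fold change of -0.12 and a 95% interval of -0.41 to 0.17. Psme1 (57 and 58 against 87 and 114 fragments), Psme2 (32 and 17 against 28 and 65) and Psme3 (114 and 51 against 89 and 129) overlapped, with log2 fold changes of -0.22, -0.36 and 0.12.

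**Figure D2:**
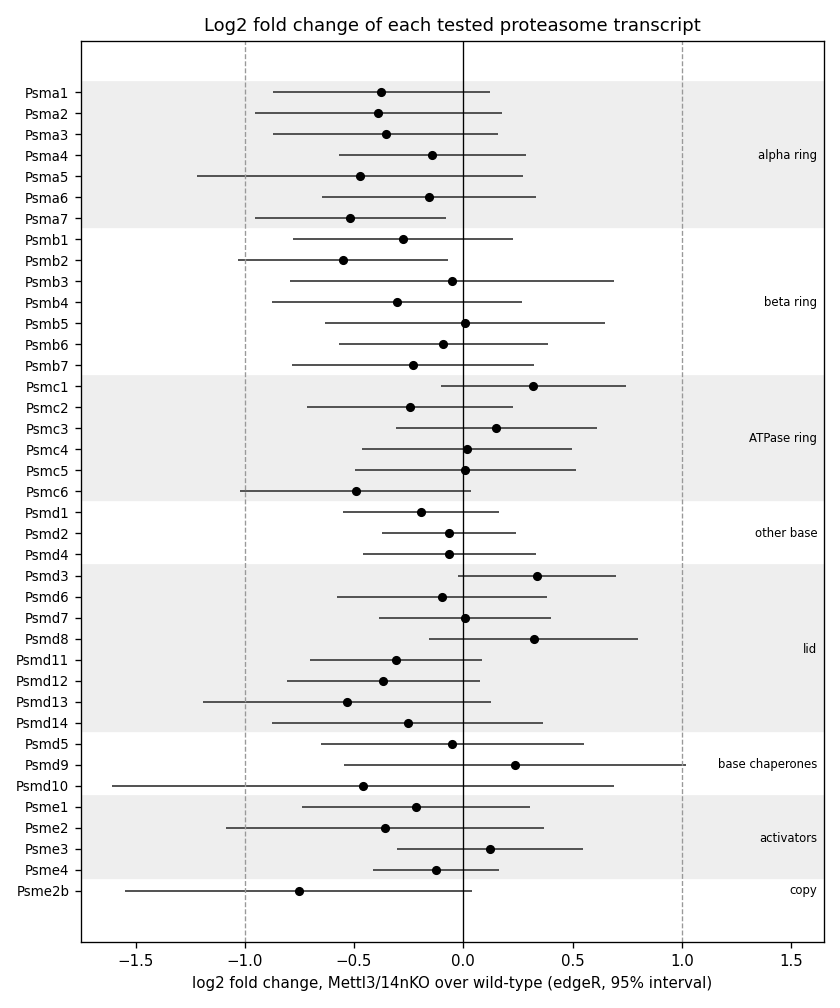
Log2 fold change (Mettl3/14nKO over wild-type, edgeR) of the 39 tested proteasome genes with 95% intervals, grouped by part of the particle; dashed lines mark -1 and 1. All points lie between -0.75 and 0.34, the 7 alpha ring points lie left of 0 (Psma3 is positive by FPKM), and the intervals of Psma7 and Psmb2 alone leave out 0.

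Psme2b had the most negative log2 fold change of the tested members. It had 14 and 15 fragments in Mettl3/14nKO (11.5 and 20.2 CPM) and 32 and 41 in wild-type (25.5 and 25.3 CPM). The groups did not overlap, and the log2 fold change was -0.75 (SE 0.37, edgeR adjusted p = 0.347). Psme2b lies on chromosome 11 at 48945354 to 48946190 of mm10 (minus strand) and has 1 exon, where Psme2, on chromosome 14 at 55587441 to 55591113, has 11. The 717 coding bases of both are identical at 712 positions (99.3%), so how fragments were divided between the 2 genes depends on the authors' read assignment, and the values of both are uncertain. The stretch from coding base 484 to 543 holds 3 of the 5 differences, shown in capitals in the annotated transcripts (GENCODE M21), to show how little separates the copies.
Psme2: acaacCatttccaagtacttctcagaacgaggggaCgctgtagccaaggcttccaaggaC
Psme2b: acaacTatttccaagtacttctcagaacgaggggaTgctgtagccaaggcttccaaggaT
An exon of 9930111J21Rik1 on the same strand overlaps Psme2b as well. The deposited locus of Psme2b is 230732 bases long, against 837 for the annotated gene. Which fragments were counted under its name is therefore uncertain. The other paralog pairs differ more: Psma7 and its testis counterpart Psma8 share 74.3% of aligned coding positions, and Psmb5, Psmb6 and Psmb7 share 62.3, 60.6 and 60.05% with their immunoproteasome counterparts Psmb8, Psmb9 and Psmb10.

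Of the 42 members 3 were not tested. Psma8, known from the male germ line, had 1 fragment in wild-type replicate 1 and 0 in the other libraries. Psmb11, the subunit of the thymus epithelium, had 0 fragments in all 4 libraries, which allows up to 2.47 and 4.03 CPM in Mettl3/14nKO and up to 2.39 and 1.85 CPM in wild-type (3 counts of each library, counting error only). Psmc3ip had 3 and 2 fragments against 7 and 6.

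Taking the tested members side by side, 29 of 39 (74.4%) had a negative log2 fold change. The 2 Mettl3/14nKO libraries lay below the 2 wild-type libraries in CPM for 13 of 39 members (33.3%), beside 22.6% of all genes tested, and above them for 1 (Psmd3), beside 22.6%. The quartiles of the members' log2 fold changes were -0.36 and -0.02, where those of all genes were -0.24 and 0.24, and the members spread less, with an SD of 0.26 against 0.63. None lay beyond 1 in either direction, where 6.91% of all genes did. The 95% interval lay inside -1 to 1 for 31 of 39 members (79.5%), beside 60.8% of all genes. The 2 sets were not matched for level. The 38 subunits, cap chaperones and activators had a wild-type median of 25.5 FPKM, against 7.60 FPKM over expressed genes. Spread and interval width depend on fragment number, and whether the members differ in them from genes of like level was not tested. The median size of a member's log2 fold change was 0.24, and members differed by a median of 0.25 between the Mettl3/14nKO replicates and 0.24 between the wild-type replicates in log2 CPM. The first is a difference between means of 2 libraries and the others are between single libraries, so the sizes are not on equal terms.

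**Figure D3:**
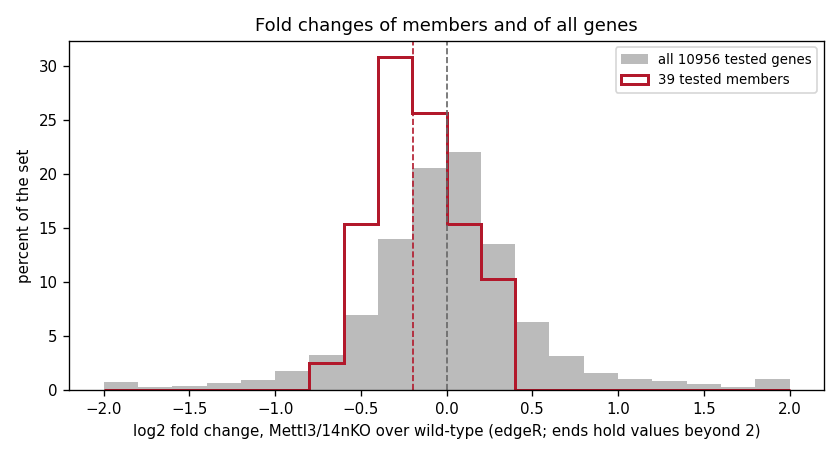
Percent of genes per interval of log2 fold change (Mettl3/14nKO over wild-type, edgeR) for all 10956 tested genes (grey) and the 39 tested proteasome members (red line); dashed lines mark the medians. The members' median of -0.19 lies left of that of all genes at 0.00, and no member lies beyond 1. The sets were not matched for level.

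Summed over all members, proteasome transcripts took 0.227 to 0.260% of the fragments of a library. The sum was 2395 and 2270 CPM in Mettl3/14nKO against 2521 and 2599 CPM in wild-type, a ratio of 0.911. The alpha ring summed to 332 and 302 CPM against 396 and 406 CPM (ratio 0.792), and the beta ring to 278 and 267 CPM against 296 and 349 CPM (ratio 0.845). The ATPase ring summed to 445 and 366 CPM against 432 and 396 CPM, which overlapped, with a ratio of 0.978. The lid (564 and 507 against 537 and 577 CPM) overlapped too, with a ratio of 0.961. Whether a part overlapped depended on the unit. In summed FPKM the ATPase ring (158 and 113 against 159 and 160, ratio 0.845) did not overlap. Neither did the lid (172.1 and 126.0 against 172.4 and 210.7, ratio 0.778). The FPKM ratios of the alpha and beta rings were 0.706 and 0.697.

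The core and the cap were then set against each other, a ratio taken within each library and so free of the scaling between libraries. This ratio was chosen after the values of the rings were seen. The 14 core genes gave 13 negative and 1 positive log2 fold change with a median of -0.29, and the 17 cap genes 10 negative and 7 positive with a median of -0.07. Core transcripts summed to 0.455 and 0.461 of cap transcripts in Mettl3/14nKO, against 0.510 and 0.568 in wild-type (CPM). The log2 difference was -0.23, and the groups did not overlap. In FPKM the ratio was 0.868 and 0.941 against 0.978 and 1.07, a log2 difference of -0.18, again without overlap. The alpha ring over the ATPase ring gave 0.747 and 0.827 against 0.915 and 1.03 in CPM, and 1.13 and 1.32 against 1.35 and 1.54 in FPKM. With 2 libraries against 2 the smallest two-sided p of an exact permutation test is 0.333, so these ratios carry no test. For each ratio and unit the wild-type replicates differed from each other by more than the groups did at their nearest, most clearly in FPKM.

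**Figure D4:**
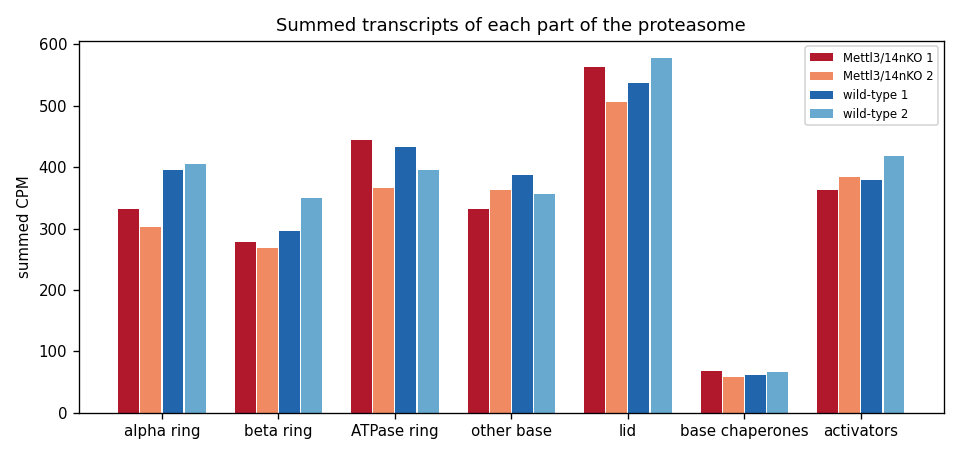
Summed CPM of the genes of each part of the proteasome in the 4 libraries (bars, 1 per library, from 0). The alpha and beta rings are lower in both Mettl3/14nKO libraries than in both wild-type libraries, while the bars of the ATPase ring, the other base genes, the lid, the base chaperones and the activators overlap between the genotypes. In summed FPKM, which is not drawn, the activators alone overlap.

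The deposited FPKM gave lower values for Mettl3/14nKO than the fragments did, in the median over all genes and not in that of the proteasome alone. Single genes such as Psma3 went the other way. With limma on log2(FPKM + 1), a scale that understates the change of low genes, the median over all 12213 genes tested was -0.21, and that of the 40 members tested was -0.38. Relative to all genes the members lay at -0.17 by FPKM and at -0.20 by fragments. In FPKM the 2 Mettl3/14nKO libraries lay below the 2 wild-type libraries for 26 of the 39 members tested by edgeR and above them for 0. The same held for 36.7% and 9.36% of all genes tested by edgeR. How much of the members' count comes from the shift in the median over all genes was not tested. The 26 members include Psma4, Psma5, Psmb3, Psmb4, Psmb5, Psmc2, Psmd1, Psmd2, Psmd4, Psmd5, Psmd6, Psmd7, Psmd14 and Psme1. In CPM the groups of these genes overlapped. Psma3 and Psmd3 overlapped in FPKM but not in CPM. Limma called 0 members and 0.0% of all genes, so its count of calls says nothing of the members, and 9 of 40 had an unadjusted p under 0.05, beside 12.1% of all genes. For 11 members the FPKM per CPM varied between libraries by more than 0.5 on the log2 scale, Psma3 and Psmd13 most (0.92 each), so for these the 2 units do not measure the same change. The deposited locus of 8 members is over 2 times as long as the annotated gene. Examples are Psmd4 (813116 bases in the table, 9921 in GENCODE) and Psme2b (230732 and 837).

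The genes around the proteasome gave no call either. Of all genes tested 3.71% were called, so 0 calls in lists this short say little of their genes. Both Mettl3/14nKO libraries lay below both wild-type libraries in CPM for 22.6% of all genes tested, and above them for 22.6%. Psmb8 and Psmb10 of the immunoproteasome, the form induced by interferon, had few fragments. Psmb8 had 15 and 9 against 17 and 29 (log2 fold change -0.38, SE 0.40, edgeR adjusted p = 0.741), and Psmb10 had 13 and 9 against 17 and 39 (log2 fold change -0.77, SE 0.43, edgeR adjusted p = 0.432). Neither overlapped in CPM. Psmb9 was too low to test, with 8 and 3 against 2 and 7 fragments. Of the chaperones that assemble the core, 0 of 3 tested were called (median log2 fold change -0.44). Among them Pomp, which matures the half-formed core, had 45 and 38 fragments in Mettl3/14nKO (37.0 and 51.1 CPM) and 76 and 98 in wild-type (60.5 and 60.6 CPM). Its log2 fold change was -0.50 (SE 0.24, edgeR adjusted p = 0.346), and its groups did not overlap. Psmg2 and Psmg3 had 14 fragments or fewer in each library.

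Of 10 genes for proteins that bind the proteasome 0 were called (median -0.11), beside 3.71% of all genes tested. Akirin2, which carries proteasomes into the nucleus, had 24 and 22 fragments against 60 and 61 (log2 fold change -0.83, SE 0.31, edgeR adjusted p = 0.183) and did not overlap. Txnl1, a thioredoxin-like protein of the cap, had 71 and 38 against 105 and 110 (log2 fold change -0.46, SE 0.21, edgeR adjusted p = 0.304). Zfand5 overlapped between groups. Of 7 tested shuttle factors, which bring tagged proteins to the cap, 0 were called (median -0.08). Ddi2, the protease that releases the proteasome gene activator Nfe2l1, had 118 and 82 fragments in Mettl3/14nKO, against 190 and 234 in wild-type. In CPM its groups did not overlap, with a log2 fold change of -0.53 (SE 0.16, edgeR adjusted p = 0.0901). Without Mettl3/14nKO replicate 2, or with no filter on low counts, edgeR called it lower. Nub1 (0.25) and Ubqln2 (0.15) were the next by p.

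The ubiquitin genes and the activating enzymes gave 0 calls among 6 (median -0.17), beside 3.71% of all genes tested. Ubb, a polyubiquitin gene, had 501 and 393 fragments in Mettl3/14nKO against 700 and 885 in wild-type (log2 fold change -0.25), and Uba1, the main activating enzyme, 409 and 227 against 437 and 587 (-0.15). Among the 11 genes of the p97 unfoldase and its partners 0 were called (median -0.06), with log2 fold changes of 0.32 for Ubxn1, -0.25 for Derl1 and -0.41 for Ufd1l. The 9 activators of proteasome genes also gave 0 calls (median -0.01). Nfe2l1, the main one of them in mammals, had 491 and 277 fragments in Mettl3/14nKO (404 and 372 CPM) and 560 and 686 in wild-type (446 and 424 CPM), a log2 fold change of -0.17 (SE 0.12, edgeR adjusted p = 0.585). Nfya had a log2 fold change of 0.40 and Mafg of 0.17, the latter of opposite sign by FPKM.

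Autophagy, the other main route of protein breakdown, gave 0 calls among 14 genes (median -0.09), beside 3.71% of all genes tested. Sqstm1, the receptor that takes tagged proteins to autophagosomes, had 550 and 332 fragments in Mettl3/14nKO (452 and 446 CPM) and 742 and 1035 in wild-type (591 and 640 CPM). The groups stood apart, with a log2 fold change of -0.46 (SE 0.12, 95% interval -0.72 to -0.20). The edgeR adjusted p was 0.0522, and edgeR called it lower when libraries were scaled to their totals alone, with no filter on low counts, and without Mettl3/14nKO replicate 2. Gabarap had a log2 fold change of 0.29 and Gabarapl2 of -0.51. The COP9 signalosome, a relative of the lid, gave 0 calls among 9 genes (median -0.10), with -0.78 for Cops7b, -0.36 for Gps1 and -0.20 for Cops2. The deposited FPKM of Cops2 stood apart (13.4 and 13.6 against 28.9 and 25.5), with -0.96 by limma and -0.73 after rescaling, and limma did not call it.

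Features that the rule did not use were read for the members. The genes lie on 16 chromosomes, with 10 genes on chromosome 11 and 6 on chromosome 14. No share of all genes on these chromosomes was taken. The members' transcripts were short. The annotated transcript with the longest coding part had a median length of 1490 bases in 40 members, against 3032 in 12047 expressed genes, and the 3′ untranslated part a median of 259 against 974 bases. Exon numbers were alike (median 10 against 9). The letters GGACT, the most frequent form of the sequence at which m6A is placed, stood in the transcripts of 33 of 40 members (82.5%), against 91.7% of expressed genes. Per kilobase the medians were 1.26 and 1.05. A match of these letters is not a methylated site. Psma1, Psma4, Psma5, Psma7, Psmb4, Psmd10 and Psme1 had none. Exons of 10 members overlap antisense exons of another gene and those of 3 overlap a gene on the same strand, and the strand setting of the counting is unstated.

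Proteasome genes are known to be switched on together by Nfe2l1, which binds antioxidant response elements. RefSeq promoter windows (GRCm38.p6, 250 bases before to 50 after the start) were at hand for 35 members, 34 of them expressed. The core of that element, TGANNNNGC, searched on both strands, stood in 18 of the 34 (52.9%), against 42.8% of 9127 expressed genes. The stricter TGACTCAGC, which is contained in the first pattern, stood in 0 members and in 0.394% of the expressed genes. CCAAT, the box bound by the Nfy factors, stood in 13 (38.2%) against 38.4%, and TATAAA in 3 (8.82%) against 4.09%, both searched in the same windows. Median GC content was 58.2% against 61.3%. These shares describe the letters and carry no test. The 100 bases before the start are printed for Psmb5, Psmb6 and Psmd9, chosen after the search because the pattern, in capitals, stands on the gene's strand within 60 bases of the start and the windows hold at most 30 bases of annotated exon. The transcripts of these genes had log2 fold changes of 0.01, -0.09 and 0.24. Psmb5 is chr14:54617996-54618095 on the minus strand, Psmb6 chr11:70525257-70525356 and Psmd9 chr5:123228090-123228189 on the plus strand, each printed 5′ to 3′ along the gene.
Psmb5: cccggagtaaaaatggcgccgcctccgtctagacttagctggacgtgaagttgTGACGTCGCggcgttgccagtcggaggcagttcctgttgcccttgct
Psmb6: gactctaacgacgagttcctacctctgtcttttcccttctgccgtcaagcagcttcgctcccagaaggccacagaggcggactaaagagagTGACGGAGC
Psmd9: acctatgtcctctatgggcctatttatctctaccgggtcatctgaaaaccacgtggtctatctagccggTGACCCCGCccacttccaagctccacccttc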

How the data were processed

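Total RNA was depleted of ribosomal RNA and sequenced from both ends after a directional library kit, per the labels' protocols. Tools in the submitters' processing notes are HISAT2 2.0.4, cutadapt 1.9.3, Cufflinks and Cuffdiff, with the build mm10 and no annotation release, filter or strand setting. The table holds FPKM and estimated counts as the authors deposited them, per the file headers. Within a library 92.2 to 93.2% of the estimated counts lie within 0.01 of whole multiples of a step (0.835 to 1.33), so they were divided by that step and rounded to fragments. Genes of 1 symbol were summed.

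Groups came from the sample titles. The test was edgeR 4.0.16 (R 4.3.3; quasi-likelihood, TMM factors of 0.991 to 1.01, filterByExpr, genotype as the only term), two-sided, adjusted over all genes tested. SE and 95% intervals came from the same fit, and CPM from fragment totals. Limma 3.58.1, DESeq2 1.42.0, other filters and scalings, a replicate block and libraries left out in turn were alternatives, and limma on rescaled FPKM and TMM-scaled sums were added after seeing the data. Members and gene lists were chosen with earlier results of these data known. By rule, full statistics were given for the 8 members of smallest p and the catalytic genes. The rule also named up to 3 genes of each related list and the immunoproteasome genes, many of them given here without SE or adjusted p. A gene that the rule names is not reported here. Replicates differed by more than counting error allows (chi-square over its degrees of freedom 2.29 in wild-type and 2.30 in Mettl3/14nKO). Annotation was GENCODE M21, which held all 42 members and 96.8% of the table's identifiers. The steps were tested on simulated data. The limits set by 3 counts cover counting error only.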

Additional observations from a re-analysis of the deposited data

How the results depend on the processing

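Under all 14 alternative settings 0 members were called higher or lower, and the members' median log2 fold change stayed negative. It was -0.38 with limma on log2(FPKM + 1), -0.42 with limma on log2(FPKM + 0.1), and -0.21 to -0.10 with a library left out. The log2 ratio of the summed CPM was -0.13, with -0.41 for summed FPKM, -0.19 for the mean log2(CPM + 1), and -0.17 to -0.10 with a library left out. Over all genes edgeR called 230 higher and 176 lower, DESeq2 88 and 47, edgeR with no filter on low counts 469 and 388, and limma on FPKM 0 and 0 with either pseudocount and after rescaling. Leaving out a library gave 135 to 390 higher and 131 to 285 lower, the highest counts without Mettl3/14nKO replicate 2, the shallowest library, and the lowest without Mettl3/14nKO replicate 1. The replicate numbers were not used as pairs, since the labels give them no meaning and deviations of same-numbered libraries correlated at 0.02. With the replicate block 215 genes were higher and 166 lower, no member was called, the members' median was -0.20, and Psmb5 stood at -0.0060. Of the 39 tested members 20 changed sign under at least 1 setting and 6 on rescaled FPKM, and of the alpha ring Psma3 alone did. Of 154 values of the 11 members named with full statistics 9 changed sign. For Psmb5 they were -0.27 (limma, pseudocount 1), -0.28 (pseudocount 0.1), -0.044 (rescaled FPKM), -0.0034 (DESeq2) and -0.011 (no filter), and -0.091 to 0.090 with a library left out; for Psmb6, -0.22 to 0.062 with a library left out. Ubqln2 was -0.10 by limma with either pseudocount and -0.00030 to 0.32 with a library left out. Mafg was -0.24, -0.25 and, rescaled, -0.013 by limma. With a library left out Psmg2 ran from -0.90 to 0.050, Psmg3 from -0.41 to 0.31, Cops2 from -0.39 to 0.017 and Mettl3 from -0.91 to 0.25. The cause of these changes was not tested. Where a group is left with 1 library, that library is assumed to vary like the other group.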
